A study of Sus scrofa with 30 samples.

Results

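Liver of 12 female pigs that had been feed restricted was compared between the end of the restriction (T2, 6 pigs) and the end of the following refeeding period (T3, 6 pigs). The samples were taken by their titles and make up 12 of the 30 arrays of the series. At each time point 3 of the 6 pigs had normal birth weight (1.4 to 1.6 kg, group NR) and 3 had low birth weight (0.8 to 1.1 kg, group UR). Restricted pigs received 50% of ad libitum intake for 3 weeks and then ate freely for 5 weeks. The description of the design gives ages of 98 and 131 days, whereas the label of the single samples gives day 97 for T2 and day 103 for T3, so the refeeding time rests on the protocol and the design text.

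All pigs of the study were female, were suckled until weaning at day 28 and were then housed singly. The restriction was given on a diet of 13.6 MJ per kg, and a diet of 14.1 MJ per kg was fed afterwards to restricted and control pigs. Age, diet and refeeding changed together between T2 and T3. The control pigs (NK and UK, 12 arrays at T2 and T3) were not restricted and were of the same age, and 6 pigs (3 of each birth weight) were sampled at T1, before any restriction, at day 75 by the design text and day 76 by the labels. After weaning all groups had shared a diet of 16.3 MJ per kg. Pigs had been selected within a litter by birth weight, and no label ties a pig to a litter. Each array holds the liver RNA of 1 pig, drawn at random from its group at that time point, so T2 and T3 are different animals. In whole tissue, fewer cells of a type and less RNA per cell cannot be told apart.

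The liver sets the supply of fuel during feed shortage: glycogen is broken down, gluconeogenesis and fatty acid oxidation are raised, and lipid synthesis is lowered. Refeeding is known to reverse much of this within hours to days through insulin and nutrient signals, and catch-up growth after restriction calls on hepatic growth factor output and protein synthesis. Growing pigs also change hepatic expression with age whether or not they were restricted.

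RNA labelled with Cy3 had been hybridised to Agilent arrays with pig probes of 60 bases each. The files used here give a probe number and a sequence and pair no probe with a gene, so the probes are reported by number, the labelled tissue could not be set against liver markers, and no pathway list could be counted. The probes on which the results below turn are printed so that they can be placed in a pig genome. The first 4 had the largest changes in each direction among probes that passed the test, were well above background on all 12 arrays and had no overlap between the 6 pigs of T2 and the 6 of T3. The last 2 passed the test within both birth weights and were singled out after their values were seen.
PigEx0008618: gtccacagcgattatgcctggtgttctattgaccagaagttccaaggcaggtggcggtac
PigEx0008616: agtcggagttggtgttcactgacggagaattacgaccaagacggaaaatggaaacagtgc
PigEx0017657: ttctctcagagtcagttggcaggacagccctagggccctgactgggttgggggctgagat
PigEx0017656: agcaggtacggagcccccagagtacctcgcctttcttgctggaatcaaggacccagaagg
PigEx0047986: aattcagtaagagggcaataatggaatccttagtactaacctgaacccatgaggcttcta
PigEx0047987: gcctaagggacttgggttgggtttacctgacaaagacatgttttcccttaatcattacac

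No 2 of these 6 sequences share a run of more than 9 bases on the printed strand, so none is a shifted copy of another.

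Some arrays stood apart before any comparison was made. On the restricted arrays 53.6% to 74.3% of probes were well above background, and the 75th percentile of the signal ran from 304 to 668. The arrays of replicate 3 of NR and UR at T3 lay on slide 6, together with the replicate 3 control arrays of T3, and these 4 are the only T2 or T3 arrays of their scan session. In a principal component analysis of the 12 arrays, component 1 held 37.9% of the variance, and on it both slide 6 arrays lay at 143 and 116, whereas the other 10 lay between -69.9 and -2.94. Component 2 held 15.2% and separated T2 (9.92 to 54.6) from T3 (-55.6 to -20.0) with no overlap. Array NR T2 replicate 3 had the highest share of probes well above background (74.3%), and array UR T3 replicate 2 had the lowest (53.6%). The main counts below are given with and without these arrays.

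**Figure D1:**
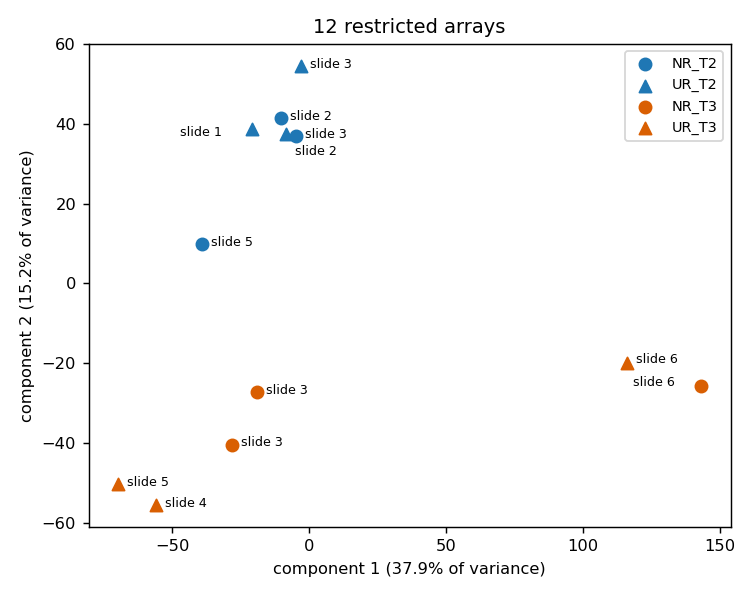
Principal components of the 12 restricted arrays (scores, no unit), from log2 signal minus each array's 75th percentile. Circles are NR and triangles UR, blue is T2 and orange T3, and each point carries its slide. The slide 6 arrays lie far to the right, and T2 and T3 separate on the vertical axis.

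From the end of restriction to the end of refeeding, 374 of 40535 probes passed the test (0.923%; limma on 24 arrays, Benjamini-Hochberg adjusted p under 0.05), of which 133 were higher (0.328%) and 241 lower (0.595%) after refeeding. Among these probes the median change was 1.13 log2 units for the higher ones and -1.14 for the lower ones, and the changes ran from 3.73 to -4.07. A change of over 1 log2 unit was reached by 218 of the 374, with 79 higher and 139 lower. Over all probes the median change was 0.0019 and the median size of change 0.21. At an unadjusted p under 0.05 there were 5530 probes (13.6%). Arrays of the same replicate number deviated together within a time point, so the 6 arrays of a time point may not be fully independent. Replicate number is partly mixed with slide. The replicate 3 arrays of T3 all lay on slide 6, and the restricted T2 arrays shared slide 2 for replicate 1 and slide 3 for replicate 3. Whether pigs or slides deviated together was not tested. With that number within each time point as a random block (correlation 0.33 between arrays of a block), 20 probes passed, 3 higher and 17 lower, all of them among the 374, and 3599 had an unadjusted p under 0.05. The 374 thus rest on treating these arrays as independent. In the fit without the block, the median 95% interval of a change reached 0.50 log2 units to either side, a 1.42-fold change.

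The values of the 6 and the 6 pigs did not overlap at all for 271 of the 374 probes (72.5%), against 922 of 40395 probes with a value on every array (2.28%). Of those 922, 357 were higher and 565 lower at T3. Without slide 6, with 4 arrays left at T3, 287 of the 374 did not overlap, against 10.0% of all probes. The count was 281 (2.97% of all probes) without NR T2 replicate 3 and 285 (2.86%) without UR T3 replicate 2. The 374 had been chosen by their change between these same arrays. A larger share without overlap than over all probes follows from that choice and is no added evidence. On all 12 arrays 292 of the 374 were well above background, and 218 met both conditions.

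PigEx0008618 had the largest rise by the naming rule. Its level, in log2 units relative to the array's 75th percentile, was -1.75, -1.86 and -3.53 in NR and -2.94, -4.23 and -4.18 in UR at T2, and -0.64, -0.0071 and -0.34 in NR and 0.90, -1.53 and 0.037 in UR at T3. Every T3 pig lay above every T2 pig, although UR replicate 2 at T3 came close to the highest T2 pigs. The change was 2.82 log2 units (SE 0.48, 7.06-fold, limma adjusted p = 0.0120), and with the random block its adjusted p was 0.0881.

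PigEx0008616, whose number lies 2 away, ran in parallel. It stood at -1.37, -1.45 and -3.12 in NR and -2.64, -3.75 and -2.89 in UR at T2, and at -0.24, 0.54 and 0.33 in NR and 1.45, -1.18 and 0.25 in UR at T3. The same UR pig was lowest at T3 for both probes and the same NR pig was lowest among NR at T2. The change was 2.73 (SE 0.50, 6.63-fold, limma adjusted p = 0.0160), and its adjusted p was 0.119 with the random block.

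The largest falls were in PigEx0017657 and PigEx0017656, which carry consecutive numbers. PigEx0017657 was at 1.27, -0.18 and 1.57 in NR and -1.94, 0.26 and 1.19 in UR at T2, and at -3.85, -3.72 and -4.02 in NR and -2.87, -3.52 and -4.30 in UR at T3. PigEx0017656 was at 1.32, -0.12 and 1.64 in NR and -1.87, 0.48 and 1.27 in UR at T2, and at -3.34, -3.18 and -3.06 in NR and -2.49, -2.92 and -3.02 in UR at T3. The T2 pigs were widely spread and UR replicate 1 was the lowest of them for both probes, whereas the T3 pigs were close together. The changes were -4.07 (SE 0.63, 16.8-fold lower, adjusted p = 0.00613) and -3.46 (SE 0.61, 11.0-fold lower, adjusted p = 0.0131) in the limma fit. With the random block neither passed (adjusted p 0.0607 and 0.109).

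The 2 printed probes that passed within both birth weights had smaller changes and much tighter groups than the probes above. Those above were picked for the largest changes, and passing with 3 pigs against 3 favours a small spread. The contrast thus follows from how the probes were chosen. PigEx0047986 was between -3.40 and -3.10 in the 6 pigs at T2 (median -3.25) and between -1.93 and -1.60 at T3 (median -1.78), and rose by 1.48 (SE 0.14, 2.78-fold, limma adjusted p = 2.77e-05). PigEx0047987, with the next number, was between -3.41 and -2.89 at T2 (median -3.27) and between -1.85 and -1.38 at T3 (median -1.47), and rose by 1.68 (SE 0.19, 3.21-fold, limma adjusted p = 0.000221). The T2 and T3 pigs were over 1 log2 unit apart at their nearest for both. Both also passed with the random block (adjusted p 0.000995 and 0.00429).

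**Figure D2:**
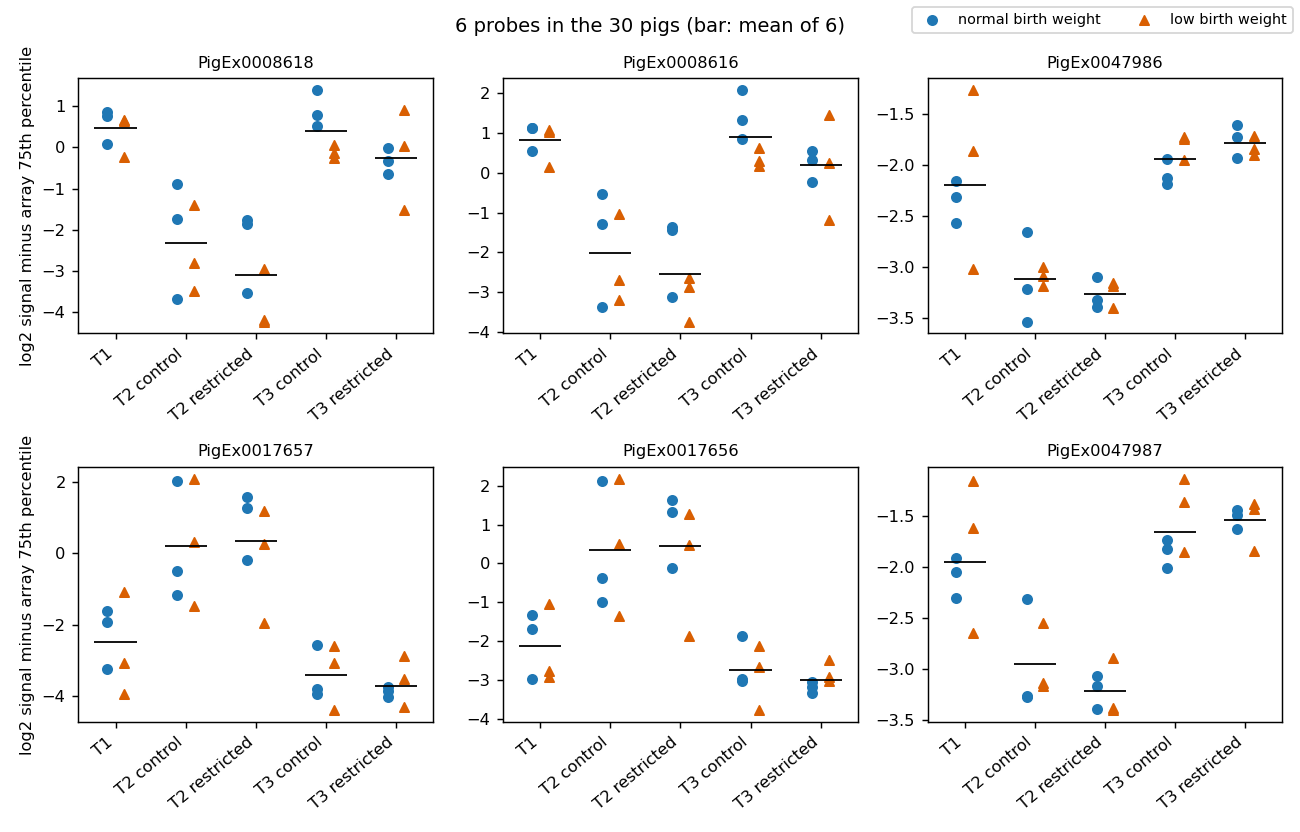
Level of 6 probes in each of the 30 pigs (vertical axis: log2 signal minus the array's 75th percentile). Blue circles are normal and orange triangles low birth weight, and the black bar is the mean of 6 pigs. PigEx0017657 and PigEx0017656 fell and the other 4 rose in restricted pigs from T2 to T3, and control pigs and the T1 pigs are shown for comparison.

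Within the birth weights, fewer probes passed, with 3 pigs against 3. In NR there were 6 of 40536 probes (0.0148%), of which 2 rose and 4 fell, and 3281 had an unadjusted p under 0.05. In UR there were 4 of 40535 (0.00987%), of which 2 rose and 2 fell, and 3167 had an unadjusted p under 0.05. All 4 of the UR probes were among the 6 of NR. The median 95% interval within a birth weight was 0.71 log2 units to either side, a 1.64-fold change. These small counts turned on single arrays: NR gave 0 without T2 replicate 3, 3 without T2 replicate 1 or T3 replicate 3 and up to 9 without T3 replicate 2, and UR gave 0 without T2 replicate 3, T3 replicate 1 or T3 replicate 2, 1 without T2 replicate 2 and 20 without T2 replicate 1.

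For PigEx0047986 the change was 1.52 in NR (limma adjusted p = 0.00354) and 1.43 in UR (0.0105). For PigEx0047987 it was 1.69 in NR (limma adjusted p = 0.0225) and 1.67 in UR (0.0385). The difference between the birth weights was -0.090 (95% interval -0.67 to 0.48) for PigEx0047986 and -0.017 (-0.79 to 0.76) for PigEx0047987.

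Tested directly, the T3 minus T2 change of UR against that of NR gave 0 of 40535 probes (0%; limma), with 872 at an unadjusted p under 0.05 (2.15%). The median 95% interval of this difference, which is not adjusted, was 1.01 log2 units to either side, or 2.01-fold. Smaller differences between birth weights were for most probes not detectable with 3 pigs a group. The test adjusted over 40535 probes asks for more than this interval, so larger differences could be missed too. All 374 probes of the averaged comparison had the same sign in NR and UR, which the averaging favours, with a median size of 1.09 in NR and 1.13 in UR. The change was larger in size in UR for 202 of them, and 8 had an unadjusted p under 0.05 for the difference.

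The probes with the smallest p for a difference between birth weights did not pass. PigEx0020328 was at -5.55, -6.22 and -4.93 in NR and 0.097, -4.92 and -2.18 in UR at T2, and at -5.08, -4.17 and -3.83 in NR and -5.39, -5.95 and -6.88 in UR at T3, and 1 UR pig stood far above the others at T2. It was well above background on only 3 of 6 arrays at each time. Its change in UR minus that in NR was -4.95 (SE 1.16, limma adjusted p = 1.0). PigEx0046926 followed with -1.75 (SE 0.42, limma adjusted p = 1.0).

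The same interval in control pigs, which had not been restricted, is the background for these changes. In controls 2332 of 40536 probes passed (5.75%): 984 rose, 1348 fell, and 8399 had an unadjusted p under 0.05. Restricted and control comparisons share no array, but they share slides and scan sessions. Restricted and control arrays of the same birth weight and replicate number also deviated together within a time point. Their r was 0.045 to 0.17 at T2 and 0.17 to 0.65 at T3, so the controls may not be a fully independent repeat. Of the 374 probes of the restricted pigs, 247 also passed in controls, all with the same sign, which is 66.0% of the restricted list and 10.6% of the control list. The same sign was found in controls for 368 of the 374, with a median size of 0.93 in controls against 1.14 in restricted pigs, where the probes had been selected, and 0.26 over all probes in controls. Without slide 6, 367 had the same sign and 266 passed in controls, and without either of NR T2 replicate 3 and UR T3 replicate 2 the counts were 368 and 241. With the random block 559 probes passed in controls. Conversely, 2238 of the 2332 control probes had the same sign in restricted pigs, with a median size of 0.46 there against 0.86 in controls, where these probes had been selected. That choice favours a smaller size in restricted pigs. The share of all probes with the same sign in both comparisons is not given here. The same-sign counts, here and in the next paragraph, therefore have no baseline.

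The change of restricted pigs against that of controls, tested directly, gave 0 of 40535 probes (0%; limma), with 1412 at an unadjusted p under 0.05 (3.48%). Its median 95% interval was 0.71 log2 units to either side. Among the 374 probes, 41 had an unadjusted p under 0.05 for this difference. Of the 127 that passed in restricted pigs alone, 121 had the same sign in controls, 81 had an unadjusted p under 0.05 in controls and 36 an unadjusted p under 0.05 for the difference, so passing in 1 group of pigs and not in the other did not mean that the changes were shown to differ.

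**Figure D3:**
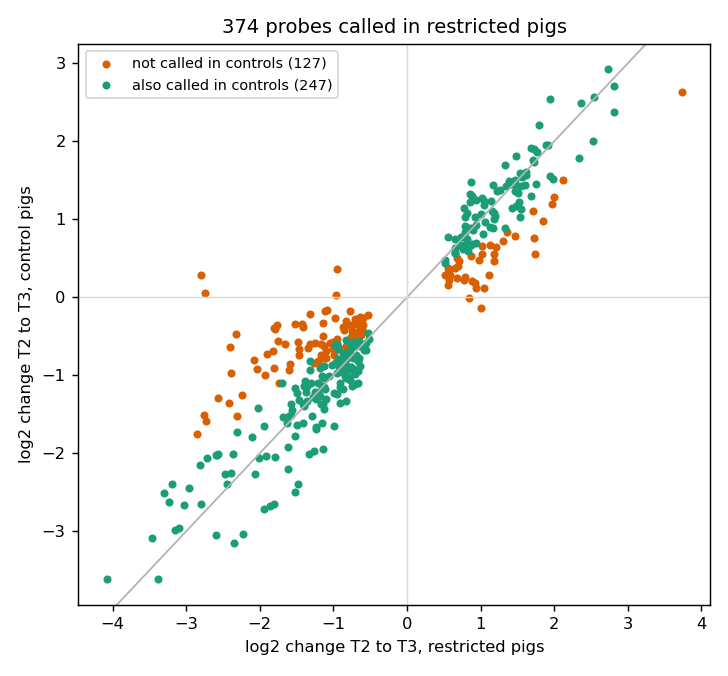
Change from T2 to T3 in restricted pigs (horizontal, log2) against that in control pigs (vertical, log2) for the 374 probes that passed in restricted pigs. Green probes (247) passed in controls as well and orange probes (127) did not; the grey diagonal marks equal change. Most points lie at the lower left and the upper right, and 368 of 374 have the same sign in both. The share over all probes is not given.

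The control pigs followed the printed probes closely. PigEx0008618 rose from -2.32 ± 1.15 to 0.39 ± 0.63 in controls (mean ± SD, n = 6 each), a change of 2.71 (SE 0.48, limma adjusted p = 0.00298). PigEx0017657 went from 0.22 ± 1.55 to -3.39 ± 0.76, a change of -3.60 (SE 0.63, limma adjusted p = 0.00274). PigEx0047986 rose by 1.17 (SE 0.14, limma adjusted p = 0.000210) and PigEx0047987 by 1.30 (SE 0.19, limma adjusted p = 0.000960) in controls. The restricted change of PigEx0047986 minus that of controls was 0.30 (95% interval -0.10 to 0.71). All 6 printed probes passed in control pigs too.

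The T2 levels of restricted pigs can be set beside those of control pigs. PigEx0008618 ran from -4.23 to -1.75 in restricted and from -3.67 to -0.89 in control pigs, and PigEx0017657 from -1.94 to 1.57 and from -1.48 to 2.09. PigEx0047986 ran from -3.40 to -3.10 in restricted and from -3.54 to -2.66 in control pigs. The T2 ranges of restricted and control pigs overlapped for each of these 3 probes.

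The T1 pigs took no part in choosing any probe, but the restricted T2 and T3 pigs that they are set against did. All T1 arrays lay on slides 1 and 2 in scan session 1. That session also held some T2 arrays, whereas the T3 arrays were of sessions 2 to 4. The position of T1 between T2 and T3 is thus mixed with slide and scan session. PigEx0008618 was at 0.47 ± 0.43 at T1 (mean ± SD, n = 6), against -3.08 ± 1.10 at T2 and -0.26 ± 0.81 at T3 in restricted pigs, and PigEx0008616 was at 0.84 ± 0.40 against -2.54 ± 0.95 and 0.19 ± 0.87. PigEx0017657 was at -2.47 ± 1.10 at T1, against 0.36 ± 1.31 at T2 and -3.71 ± 0.49 at T3. PigEx0047986 was at -2.19 ± 0.60 at T1, against -3.26 ± 0.13 at T2 and -1.78 ± 0.13 at T3. For each of these the T1 mean lay nearer to that of T3 than to that of T2.

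Over all 374 probes the T1 mean was on the T3 side of the restricted T2 mean for 328 (87.7%), against 60.6% of all 40536 probes, and nearer to T3 than to T2 for 197 (52.7%), against 43.0% of all probes. Without slide 6 these were 328 and 207, without NR T2 replicate 3 they were 329 and 198, and without UR T3 replicate 2 they were 328 and 194. The 374 were chosen for a large gap between the restricted T2 and T3 means. A T2 mean that is extreme by chance favours both that choice and a T1 mean on the T3 side. The share over all probes is therefore no matched baseline for the 87.7%. Among the 133 higher probes 84 were nearer to T3 (63.2%), and among the 241 lower ones 113 (46.9%). The median distance from T1 was 0.54 log2 units to restricted T2 and 0.55 to restricted T3. In controls the same 374 probes had their T1 mean nearer to T3 for 230 (61.5%), against 41.8% of all probes. When each array was placed on a scale from the restricted T2 mean (0) to the restricted T3 mean (1) by its median over the 374 probes, the T1 arrays lay between 0.30 and 0.68, the control T2 arrays between -0.22 and 0.084 and the control T3 arrays between 0.58 and 0.92. Control T2 arrays thus spread around the restricted T2 mean, and every control T3 array lay below 1. The selection of the probes places the restricted arrays themselves near 0 and 1 and favours a smaller change in other pigs.

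**Figure D4:**
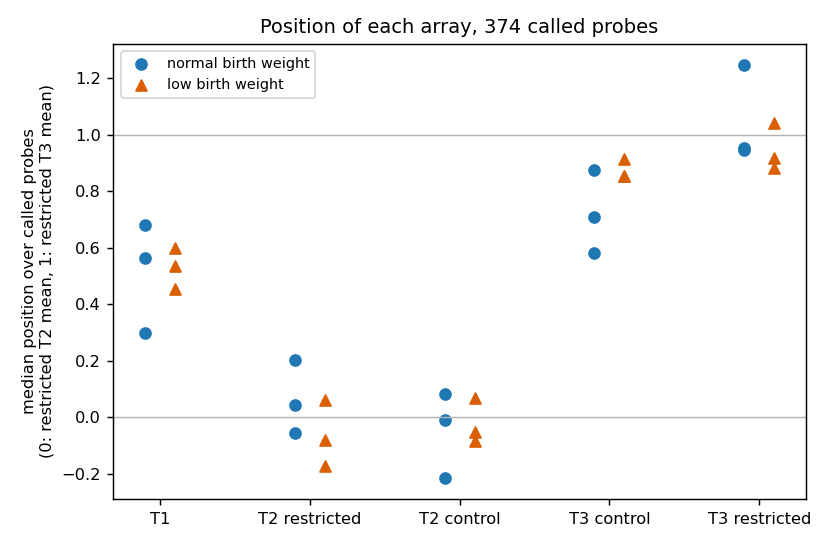
Position of each of the 30 arrays between the restricted T2 mean (0) and the restricted T3 mean (1), as the median over the 374 probes (vertical axis, no unit). Circles are normal and triangles low birth weight. Control T2 arrays lie at the restricted T2 level, control T3 arrays between 0.58 and 0.92, and T1 arrays between 0.30 and 0.68.

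A small number of probes had the smallest p for a difference between restricted and control pigs without passing. PigEx0055194 was between 0.61 and 0.97 at T2 and between 0.89 and 1.53 at T3 in restricted pigs (change 0.41), and went from 1.13 ± 0.38 to 0.58 ± 0.26 in controls (mean ± SD, n = 6 each, change -0.55). The difference of 0.96 had an SE of 0.20 and a limma adjusted p of 1.0. PigEx0024894 changed by -0.48 in restricted pigs and by 1.28 in controls, a difference of -1.76 (SE 0.37, limma adjusted p = 1.0), and at T3 it was well above background on 3 of the 6 restricted arrays.

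Because T2 and T3 were unevenly spread over slides and scan sessions, the change was also read within them. Slide 3 held 2 restricted arrays of T2 and 2 of T3, and within it all 374 probes changed in the reported direction with a median size of 1.01, against 0.27 over all probes. Within scan session 2 (3 arrays of T2 and 4 of T3) all 374 again had that direction with a median of 0.97, and on slide 5 (1 against 1) 358 did, with 0.76. These arrays are among those that chose the probes. Birth weight is mixed with time within the slides: on slide 3 the T2 arrays are 1 NR and 1 UR and both T3 arrays are NR, and on slide 5 the T2 array is NR and the T3 array UR. Scan session 2 holds 2 NR and 1 UR at T2 and 2 of each at T3. PigEx0017657 changed by -5.17 within slide 3, by -4.35 within scan session 2 and by -2.69 on slide 5. PigEx0047986 changed by 1.42, 1.49 and 1.55.

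The count of probes moved widely with the arrays and the block. It was 1669 with the slide as a block (253 of the 374 among them), 4100 with the scan session as a block (351 among them), 7200 with array weights, and 1822 without the 4 slide 6 arrays (317 among them). It was 70 when only the 12 restricted arrays were fitted (62 among them), and 1 with the slide as a block in those 12, where few degrees of freedom remain and the probe is none of the 374. In scan session 2 alone it was 226, of which 54 were among the 374. With the random block of replicate number within time point it was 20. Leaving out single arrays gave 99 to 305. It was 99 without NR T2 replicate 1, 148 without NR T2 replicate 3, 150 without UR T2 replicate 2, 128 without UR T2 replicate 3, 209 without NR T3 replicate 2, 123 without NR T3 replicate 3, 209 without UR T3 replicate 1, 201 without UR T3 replicate 2 and 178 without UR T3 replicate 3. Without both NR T2 replicate 3 and UR T3 replicate 2 it was 57 (55 among the 374). The 6 probes printed above passed in every fit that left out 1 restricted array.

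**Figure D5:**
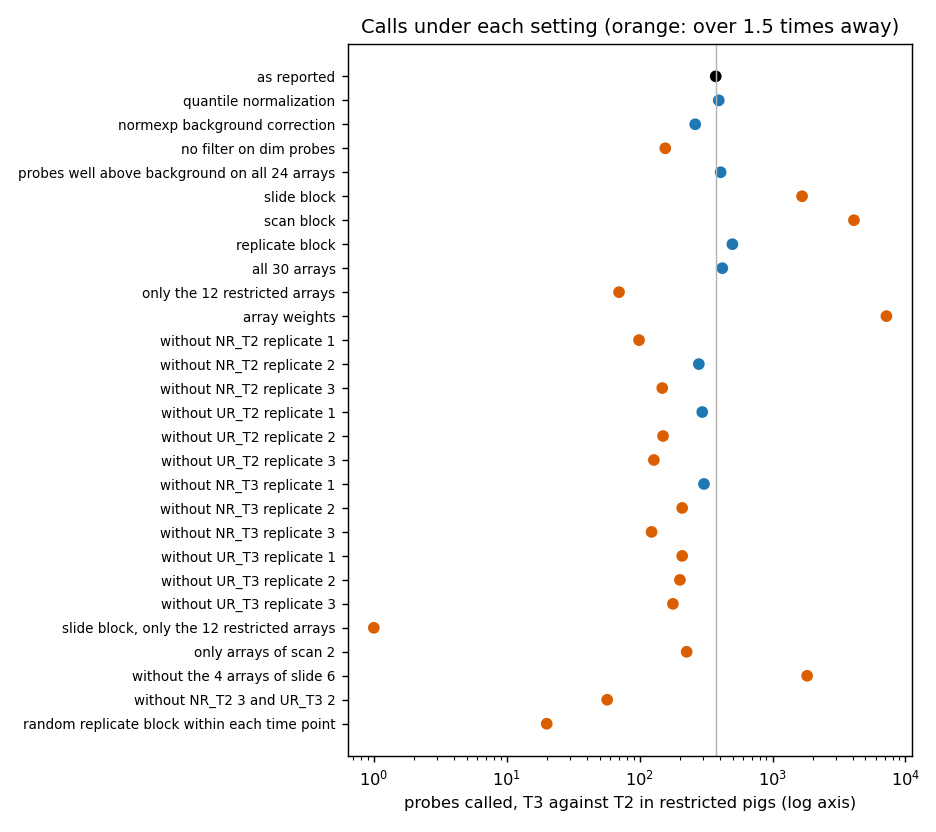
Number of probes that passed for T3 against T2 in restricted pigs under each setting (horizontal, log axis), with the reported 374 as a grey line. Blue points lie within 1.5 times of it and orange points do not. The count spans 1 to 7200, and single left-out arrays give 99 to 305.

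The spread between arrays at T3 turned on slide 6. The median SD over all probes was 0.26 in NR and 0.27 in UR at T2, and 0.39 and 0.41 at T3. Over replicates 1 and 2 alone the order was the reverse, with 0.21 in NR and 0.22 in UR at T2 and 0.13 and 0.16 at T3. Each of these SDs rests on 2 arrays. In NR these arrays shared slide 3 at T3 but lay on slides 2 and 5 at T2, so slide is mixed with time. In UR they lay on different slides at both times. Over the 374 probes the median SD lay between 0.30 and 0.33 in all 4 groups. The slide 6 arrays differed from the other restricted T3 arrays with base composition: their median difference was -0.29 log2 units for probes with under 40% G and C and 0.53 for those with 60% or more, and -0.077 over the 374 probes. Differences of opposite sign cancel in that last median. The median size of the difference was 0.35 over the 374 probes and 0.57 over all probes. On the scale from the restricted T2 mean (0) to the restricted T3 mean (1), the slide 6 arrays lay at 1.25 (NR) and 1.04 (UR). The other restricted T3 arrays lay between 0.88 and 0.95. The part of slide 6 in the result was not tested beyond the counts without it.

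Base composition and probe number were not used by the test. The median GC content was 45% for higher probes and for all probes, and 50% for lower ones. Over all probes the median change was -0.051 at 35% to under 40% GC and 0.019 at 60% and over. Without slide 6 these were 0.056 and -0.15, so the change varied with base composition in that fit. The part of this in the counts was not tested. By number, the 374 fell into 267 runs of consecutive numbers, of which 198 were single probes and the longest held 3, and 176 of the 374 had a neighbouring number that passed too. Of the 632 measured neighbours of a passing probe 84.5% changed in the same direction and 33.9% passed, against 0.923% of all probes. What neighbouring numbers stand for is not given in the sources used here.

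Probes with overlapping sequence were also set against each other. On the same strand, 12 of the 374 shared at least 30 bases with another measured probe, and all 12 of these partners changed in the same direction, 10 of them passing. The 10 passing partners are themselves among the 12 probes, so their pairs are counted from both sides. The share with the same direction over all 1988 such same-strand pairs of measured probes is not given here, so the 12 have no baseline. On the opposite strand, 8 of the 374 had 10 partners that share at least 30 bases in reverse complement, and all 10 partners changed in the same direction and passed. These partners are the same 8 probes, so each pair is counted from both sides and the distinct pairs are fewer than 10. Over all 97 such opposite-strand pairs of measured probes, each counted once, 51 changed in the same direction. Probes with near-identical sequence may measure the same RNA and are no independent evidence.

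Few probes went from undetected to detected or back. No probe was well above background on 0 of 6 arrays at T2 and 6 of 6 at T3, and 3 probes went from 6 of 6 to 0 of 6. Among the 374, 7 were not well above background on any T2 array, and for 6 of them a bound above 1-fold could be set. Another 7 were not well above background on any T3 array. Such probes were kept only because all arrays of some group were well above background, so these values are a description and their calls support nothing. A bound compares the mean of the brighter group with, per array, the higher of the probe's own signal and the lowest signal of any probe well above background. PigEx0004383 was at least 2.03-fold higher at T3 and PigEx0046551 was at least 4.13-fold lower, which are the largest bounds in each direction.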

How the data were processed

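Cy3 signal was measured on 1-colour Agilent arrays, read out with Agilent Feature Extraction, per the file headers. The intensity used is the authors' deposited processed signal, already corrected for background in the scanner software, per the file headers. The authors' deposited table of expression values was not used, because its column medians differ by time point (45.6 to 51.0 at T2, 54.6 to 56.4 at T3). Control spots and outlier spots were left out, and log2 signal was centred on each array's 75th percentile. Probes well above background on every array of at least 1 of the 8 groups of T2 and T3 were kept (40536), and 257 of them miss a value on some array. A mean per group over 24 arrays was fitted in limma 3.58.1 (R 4.3.3) with 16 residual degrees of freedom and no block, and p-values were adjusted over all probes by the Benjamini-Hochberg method. Simulated data were used to test the fit. Named probes were the 2 largest in each direction that passed, did not overlap between T2 and T3 and were well above background on all 12 arrays. For differences between groups with none passing, they were the 2 with the smallest p. Some probes that passed within a birth weight are not reported here. The comparison, the rules and the lists were chosen with earlier results of these data known. Same-numbered NR and UR arrays deviated together within a time point (r 0.20 to 0.35 at T2, 0.43 to 0.75 at T3), and with that number as a block within each time point the test between birth weights still gave 0 probes; as a random block (duplicateCorrelation) it left 20 probes in the averaged comparison. The number of arrays limits the precision. Alternatives covered scaling, background, filter, slide, scan session, replicate number, weights and left-out arrays.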

Additional observations from a re-analysis of the deposited data

Results flagged for a closer look

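Array NR T2 replicate 3 had 74.3% of probes well above background, and the next of the 6 restricted T2 arrays had 65.3%, a gap of 0.704 of the group's range, above Dixon's critical value for 6 arrays. On the same array 26.7% of the 420 spots for added ERCC control RNAs were well above background, against at most 12.1% on any T1 or control array. No label says that such RNAs were added. Array UR T3 replicate 2 had a median negative control signal of 8.51, and the next of the restricted T3 arrays had 3.60, a gap of 0.764 of the range. Chance flags about 1 in 20 such groups. The averaged count was 148 without the first array and 201 without the second, and the part of these measures in the result was not tested further.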

How the results depend on the processing

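The direction of the 6 probes named for the averaged comparison was the same in each of their 27 alternatives. PigEx0008618, PigEx0008616, PigEx0017657 and PigEx0017656 lost the call with the replicate number within each time point as a random block, and all 6 lost it with the slide as a block in the 12 restricted arrays (adjusted p 0.0511 to 0.118), PigEx0008618, PigEx0008616 and PigEx0017656 in scan session 2 alone (0.0928, 0.131 and 0.0523) and PigEx0017656 without NR T2 replicate 3 and UR T3 replicate 2 (0.0793). The averaged count of 374 became 156 with no filter on dim probes, 1669 with the slide as a block, 4100 with the scan session as a block, 70 in the 12 restricted arrays alone, 7200 with array weights, 1 with the slide as a block in those 12 (none of the 374), 226 in scan session 2 alone (54 of them), 20 with the random block, 1822 without slide 6, 57 without NR T2 replicate 3 and UR T3 replicate 2, and 99 to 305 without a single array. The NR count of 6 became 14 on probes well above background on all 24 arrays, 20 with the slide and 397 with the scan session as a block, 15 under the replicate block, 11 with the random block, 0 in the 12 arrays, 1239 with array weights, 1 with the slide as a block in the 12, 0 in scan session 2 alone and 0 without that pair, and 0 to 9 without a single array. The UR count of 4 became 2 with quantile normalization, with normexp, with no filter, with the slide as a block, in the 12 arrays and in scan session 2 alone (the last 3 share none with the 4), 1268 with the scan session as a block, 1 with all 30 arrays, 4173 with array weights, 0 with the slide as a block in the 12, 33 without slide 6, 0 without that pair, and 0 to 20 without a single array. UR against NR gave 1 in scan session 2 alone and 0 to 1 without a single array. The control count of 2332 became 1484 with no filter, 4175 with the slide and 6593 with the scan session as a block, 708 with array weights, 559 with the random block, 6693 without slide 6, and 1060 to 2367 without a single array. Restricted against control gave 9 in scan session 2 alone and 0 without any single array. The causes were not tested. The replicate block gave 499, 15, 5, 0, 3156 and 0 probes for the averaged, NR, UR, UR against NR, control and restricted against control comparisons. The numbers did not pair T2 with T3 (r -0.16 to 0.17, with 1 of 3 samples closest to its own number in NR and 1 of 3 in UR). The alternatives with the fixed or random block within each time point, scan session 2 alone, slide 6 or that pair left out and the slide in the 12 arrays were chosen after seeing the data. Averaging probes by gene was not run, since no probe is paired with a gene.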
